A study of Mus musculus with 12 samples.

Results

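Amino acid transporter genes were followed in lung and liver of virgin and pregnant mice. A gene was a member when its probe set carried a single symbol beginning with Slc1a, Slc3a, Slc6a, Slc7a, Slc36a, Slc38a or Slc43a, and the probe set with the highest mean over the 12 arrays stood for it. This gave 63 of the 18193 genes measured: 7 of the SLC1 family, 2 of SLC3, 21 of SLC6, 16 of SLC7, 5 of SLC36, 9 of SLC38 and 3 of SLC43. Of these, 60 encode carriers or their heavy chains, and Slc36a1os, Slc6a19os and Slc7a6os are transcripts of the opposite strand that the rule takes in by name. The mice were female NOD/SCID, a strain whose immunodeficiency was shared by all 4 groups, and 8 to 10 weeks old when experiments began. Lung virgin, lung pregnant, liver virgin and liver pregnant each had 3 arrays, pregnant meant day 16 of gestation, and each array held pooled RNA of 2 mice. The p-values therefore measure the spread between pools.

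Amino acids cross membranes through carriers that differ in the ion they move with and in the substrates they take. SLC1 carriers bring in glutamate and neutral amino acids with sodium, SLC6 carriers move amino acids, neurotransmitters and osmolytes with sodium and chloride, and SLC38 carriers move glutamine, alanine and other neutral amino acids with sodium. Most SLC7 proteins are light chains that reach the surface only when bound to a heavy chain, Slc3a1 or Slc3a2, while others carry arginine and lysine alone. SLC36 carriers are driven by protons, and the SLC43 carriers Slc43a1 and Slc43a2 let large neutral amino acids pass down their gradient. The liver takes up much of the amino acid load of portal blood, and pregnancy adds the demand of the fetus.

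Values are log2 expression levels, and a change or difference is a difference of group means on that scale with its standard error (SE, n = 3 pools per group). A gene passed when its limma p, adjusted over all 18193 genes, was under 0.05. The tissue labels were checked with marker genes: 9 of 9 hepatocyte markers were lower in virgin lung than in virgin liver (median difference -9.75) and 9 of 9 lung epithelium markers were higher (median 9.29). The array medians lay between 4.49 and 4.56. Probe sets for an RNA added before labelling averaged 10.78 to 11.28 on 10 arrays, but 4.68 for pool 3 of virgin liver and 5.01 for pool 3 of pregnant liver. Liver changes that passed are therefore also given within pools 1 and 2 and within pool 3 where these differ by over 1.5 times. Of the 63 members, 17 lay below 4.53, the median of all probe sets and here called the median level, in all 4 groups, and signal above background is not shown for them. Whole tissue was measured, so fewer cells of a type and less RNA per cell cannot be told apart.

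The windows before the start sites of 3 members are printed first, because these genes carried the largest rise and the largest fall in pregnant liver and the one match to an amino acid response motif. They are the 250 bases upstream of the most upstream annotated start, from RefSeq on mouse build GRCm38.p6, written 5′ to 3′ on the strand of the gene. Slc6a9 lies at chr4:117835008-117835257 on the plus strand, Slc38a4 at chr15:97055957-97056206 on the minus strand and Slc7a7 at chr14:54417945-54418194 on the minus strand. Capitals mark a match to TGATGNAAN, the letters of the element that the transcription factor ATF4 binds when amino acids are scarce.
Slc6a9: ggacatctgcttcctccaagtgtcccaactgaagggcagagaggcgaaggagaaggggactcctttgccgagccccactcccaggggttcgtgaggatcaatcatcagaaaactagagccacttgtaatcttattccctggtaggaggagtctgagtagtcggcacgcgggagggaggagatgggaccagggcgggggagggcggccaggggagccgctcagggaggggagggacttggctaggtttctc
Slc38a4: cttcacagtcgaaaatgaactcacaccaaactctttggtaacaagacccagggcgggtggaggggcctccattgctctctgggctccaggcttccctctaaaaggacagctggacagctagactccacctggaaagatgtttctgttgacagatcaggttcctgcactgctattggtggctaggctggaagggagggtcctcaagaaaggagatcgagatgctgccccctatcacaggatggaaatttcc
Slc7a7: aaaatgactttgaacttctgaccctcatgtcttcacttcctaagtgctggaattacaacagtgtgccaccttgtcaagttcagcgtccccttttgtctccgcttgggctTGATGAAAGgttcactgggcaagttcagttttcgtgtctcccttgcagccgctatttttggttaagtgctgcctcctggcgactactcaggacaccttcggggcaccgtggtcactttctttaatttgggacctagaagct

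Of the 14 members that passed in liver or lung, 10 had such a window, and Slc7a2, Slc7a12, Slc36a2 and Slc43a3 had none. TGATGNAAN, searched on both strands, was found upstream of 1 of the 10, Slc7a7. It begins at position -141 before the start shown, and the window of a start further downstream holds another match at -243. The motif occurs in 3.44% of 32851 windows of this length, or for 3.89% of 27025 genes. TTCNNNGAA, the letters bound by the prolactin-activated factor STAT5, was found upstream of 0 of the 10 and for 8.13% of all genes. Among all 46 members with a window, 3 held the first motif and 5 the second. A match describes letters and not a bound site, and the absence of a match says only that the letters are not in the window.

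Virgin lung differed from virgin liver for 46 of 63 members (73%, against 68.7% of all genes), with 20 higher in lung (34.3% of all genes were) and 26 lower (34.4% of all genes were). The median difference of the members was -0.24 (lung minus liver), against -0.07 over all genes. These shares lie near those of all genes, so what follows describes single carriers. Where a level is under the median level, the difference is set against signal not shown to be above background, and such differences have no order among the largest ones. In virgin liver this holds for Slc38a5, Slc6a14, Slc7a10 and Slc7a6, and in virgin lung for Slc3a1, Slc6a12, Slc6a13, Slc6a21, Slc1a2 and Slc36a1os. Slc6a3, Slc7a13 and Slc7a14 were under it in both tissues.

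Slc38a3, a glutamine carrier, read 5.02, 4.74 and 5.11 in virgin lung and 11.59, 11.63 and 11.57 in virgin liver. Slc38a4, which carries neutral and cationic amino acids, read 5.36, 5.48 and 4.93 against 11.60, 11.50 and 11.61. The lung and liver pools did not overlap for either gene, with differences of -6.64 ± 0.13 and -6.32 ± 0.17 (SE, limma adjusted p = 4.87e-15 and 2.19e-13). Slc38a5, another glutamine carrier, ran the other way at 7.56, 7.86 and 7.63 in lung against 3.88, 3.69 and 2.84 in liver (4.22 ± 0.24, adjusted p = 7.23e-10). Slc38a7 and Slc38a6 were lower in lung by smaller amounts (-0.70 and -0.41).

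The carriers of GABA and betaine in the SLC6 family marked the liver. Slc6a13, which takes up GABA and taurine, read 4.20, 3.62 and 3.84 in virgin lung and 9.99, 10.07 and 10.04 in virgin liver (-6.14 ± 0.14, adjusted p = 2.84e-14). Slc6a12, the betaine carrier, differed by -4.26 ± 0.12, Slc6a21 by -0.81 and the dopamine carrier gene Slc6a3 by -0.59. The lung had more of Slc6a14, a carrier of neutral and cationic amino acids in epithelia, at 7.17, 6.87 and 7.20 against 4.09, 3.86 and 3.66 (3.21 ± 0.15, adjusted p = 8.92e-11). The creatine carrier gene Slc6a8, the serotonin carrier gene Slc6a4 and the taurine carrier gene Slc6a6 were higher in lung by 2.15, 1.87 and 1.16. All of the SLC6 genes named here passed.

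The 2 heavy chains were split between the tissues. Slc3a1, the partner of the cystine and cationic amino acid carrier Slc7a9, read 3.01, 3.35 and 3.07 in virgin lung and 9.42, 9.19 and 9.45 in virgin liver (-6.21 ± 0.13, adjusted p = 9.02e-15). Slc3a2, the partner of most other light chains, read 10.52, 10.42 and 10.51 in lung and 9.23, 9.25 and 9.36 in liver (1.21 ± 0.08, adjusted p = 5.69e-09). Among the SLC7 genes, the cationic carrier Slc7a2 was lower in lung (-2.37 ± 0.12) and its relative Slc7a1 higher (2.40 ± 0.12). Slc7a10, a light chain for small neutral amino acids, was higher in lung by 3.00 ± 0.17, and Slc7a6 and Slc7a7, which exchange cationic for neutral amino acids, by 2.03 ± 0.19 and 0.35 ± 0.15 (adjusted p = 2.09e-07 and 0.0455). The call of Slc7a7 passed in 1 of the 6 fits without 1 array, the one without liver virgin pool 2 (highest adjusted p = 0.143, without lung virgin pool 1). Its difference was 0.11 with quantile normalization and 0.04 with the mean of its probe sets, and neither passed. Slc7a6os, Slc7a13 and Slc7a14 were lower in lung (-1.11, -0.60 and -0.40), but a further, dimmer probe set of Slc7a6os was higher in lung by 0.69 and passed, and the mean of both gave -0.21 without passing.

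The glutamate carriers were also split. Slc1a2, known from astrocytes and from the hepatocytes around the central vein, read 4.81, 4.36 and 4.36 in virgin lung and 7.41, 7.70 and 7.29 in virgin liver (-2.95 ± 0.14, adjusted p = 7.5e-11), and Slc1a7 was lower in lung by a smaller amount (-0.50). The glutamine carrier gene Slc1a5 and the glutamate carrier genes Slc1a1 and Slc1a3 were higher in lung by 2.40, 1.87 and 1.39, and the neutral amino acid carrier gene Slc1a4 by 0.74. The call of Slc1a1 passed in 1 of the 6 fits without 1 array, the one without liver virgin pool 1 (highest adjusted p = 0.133, without liver virgin pool 2), and it was lost with quantile normalization (0.0673). That of Slc1a4 was lost, at 0.05, without the probe sets whose suffix marks shared sequence. Slc36a2, a proton-coupled carrier of glycine and proline, was higher in lung, at 9.33, 9.52 and 9.30 against 5.04, 4.89 and 5.10 (4.37 ± 0.11, adjusted p = 9.3e-14). Its relative Slc36a4 was higher in lung by 1.45, while Slc36a1os, Slc36a1 and Slc36a3 were lower, with differences of -0.87, -0.67 and -0.48. Slc36a3 failed without lung virgin pool 1 or 2 and without liver virgin pool 1 or 3 (highest adjusted p = 0.11). All 3 SLC43 genes passed: Slc43a1 was lower in lung (-2.04 ± 0.13), and Slc43a2 and Slc43a3, whose product carries nucleobases, were higher (1.24 ± 0.12 and 3.14 ± 0.08).

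**Figure D1:**
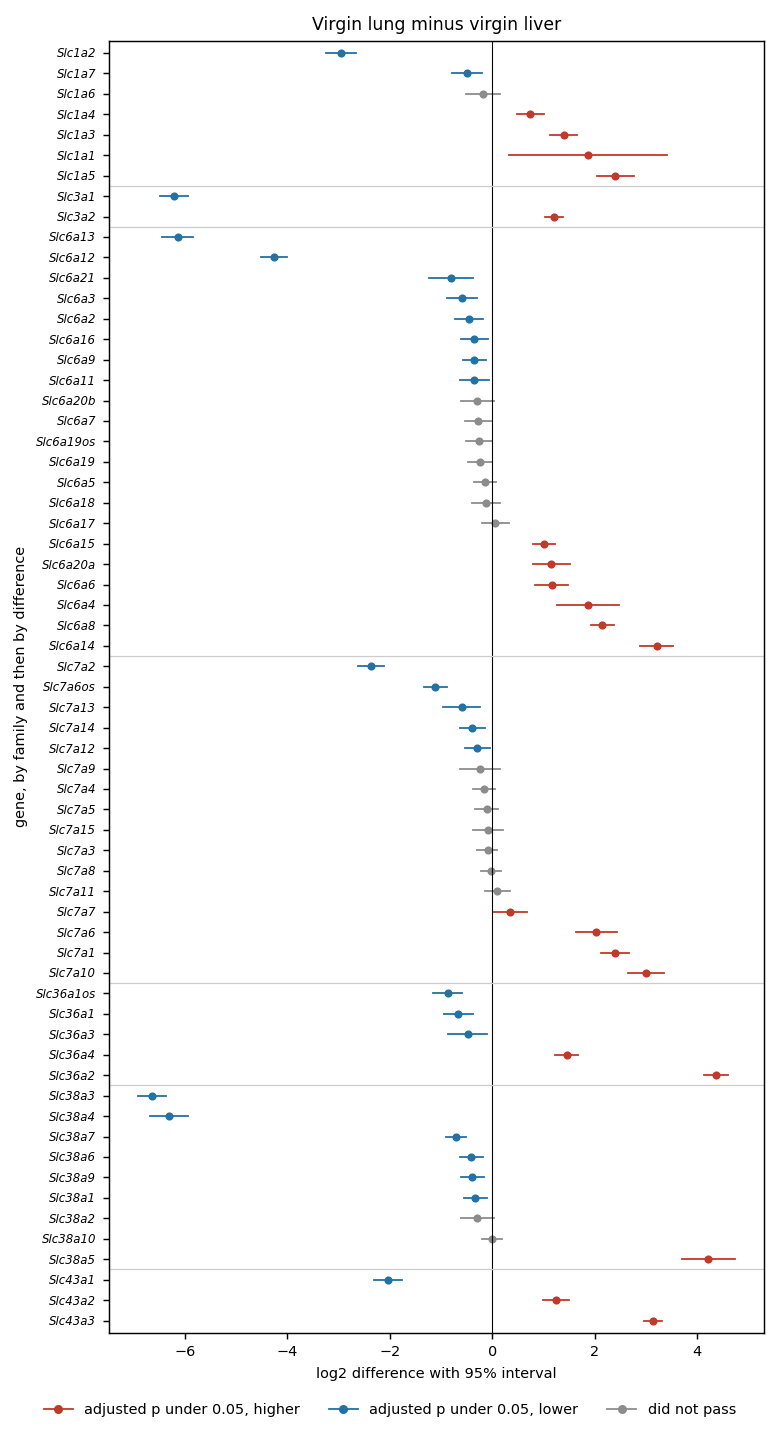
Log2 difference of virgin lung minus virgin liver for each of the 63 members, grouped by family and ordered by size; points are fitted differences, lines their 95% intervals, red and blue points passed. Each family holds points on both sides of 0, from -6.64 for Slc38a3 to 4.37 for Slc36a2.

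The choice of probe set decides the tissue for some members. Of the 46 that passed, 24 had 46 further probe sets, of which 32 differed in the same direction and 14 in the opposite one, 8 of these passing. With the mean of all probe sets Slc38a1 changed from -0.34 to 0.80, Slc38a9 from -0.39 to 0.23 and Slc6a2 from -0.45 to 0.32. The tissue of these 3 genes is therefore not settled, nor is that of Slc7a6os and Slc7a7.

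In pregnant liver carriers changed in both directions. Of the 63 members, 8 rose, 4 fell and 51 did not pass, which is 19% passing against 13.6% of all genes (6.02% higher and 7.62% lower). The members' median change was 0.05, against -0.01 over all genes. The virgin and pregnant pools did not overlap for 19 members, or 30.2%, against 28% of all genes, with 10 higher and 9 lower. The split of 8 to 4 depended on the setting: 6 rose and 6 fell with dim probe sets left out, 7 and 6 with the mean of all probe sets, and 8 and 7 with the variance trend or with the arrays lacking spike-in signal as a block. By family, 1 of 7 SLC1, 1 of 21 SLC6, 3 of 16 SLC7, 1 of 5 SLC36, 1 of 9 SLC38 and 1 of 3 SLC43 genes rose. Those that fell were 1 SLC7, 1 SLC38 and 2 SLC43 genes.

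Slc6a9, the carrier that takes glycine into cells, rose most. It read 8.01, 7.97 and 8.07 in virgin liver and 10.35, 10.35 and 10.70 in pregnant liver. Every pregnant pool lay above every virgin pool by more than the spread within either group. The change was 2.45 ± 0.10, or 5.47-fold (limma adjusted p = 2.07e-09). The further probe set of Slc6a9 rose by 1.27, from 6.57, 6.63 and 6.75 to 7.85, 7.79 and 8.11. In lung Slc6a9 changed by 0.01 and did not pass, and the change in lung minus that in liver was -2.44 (adjusted p = 1.83e-07). The other 20 SLC6 genes did not pass in liver, with changes from -0.44 for Slc6a6 to 0.32 for the proline carrier gene Slc6a7.

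Red cell precursors also use Slc6a9, so erythroid markers were read beside it. Of 8 measured in liver, Alas2 rose by 1.16, Epb42 fell by 0.56 and 6 did not pass (25% passed, against 13.6% of all genes). Their mean level per pool was 4.72 to 4.79 in virgin and 4.74 to 4.83 in pregnant liver, and these ranges overlapped. In each group 4 of the 8 were under the median level.

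Slc43a1, which lets leucine and other large neutral amino acids across the membrane, read 6.70, 6.46 and 6.71 in virgin and 8.00, 7.83 and 7.84 in pregnant liver. The pools were clearly apart, and the change was 1.27 ± 0.13 (adjusted p = 1.15e-05). Its relatives went the other way. Slc43a3 read 7.26, 7.32 and 7.38 in virgin and 6.79, 6.92 and 6.85 in pregnant liver, a change of -0.46 ± 0.08 (adjusted p = 0.00166). Slc43a2, a large neutral amino acid carrier, read 7.38, 6.90 and 7.28 against 6.66, 6.79 and 6.93, with overlapping pools. Its change of -0.39 ± 0.12 only just passed (adjusted p = 0.0484). It failed without virgin pool 1 or 3 and without pregnant pool 1 or 2 (highest adjusted p = 0.177, without virgin pool 1), and its further probe sets changed by 0.34 and 0.13 without passing. The fall of Slc43a2 thus rests on 1 probe set.

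Of the SLC7 light chains and their relatives, Slc7a7, Slc7a9 and Slc7a12 rose in liver, and neither heavy chain passed. Slc7a7, which exports cationic amino acids in exchange for neutral ones, read 6.13, 6.38 and 6.18 in virgin and 7.07, 6.98 and 7.62 in pregnant liver. The pools did not overlap, and the change was 0.99 ± 0.15 (adjusted p = 0.000413). It was 0.77 within pools 1 and 2 and 1.44 within pool 3, and the further probe set changed by 0.59 without passing. Slc7a7 is also a gene of macrophages: of 8 macrophage markers 0 rose, Timd4 fell by 0.64 and 7 did not pass (12.5% passed). Of 9 neutrophil markers 3 rose (Ngp, S100a8 and S100a9, by 1.28 to 1.89), or 33.3%, against 13.6% of all genes passing. The part of such cells in the rise of Slc7a7 was not tested. The mean neutrophil marker level per pool was 5.14 to 5.27 in virgin and 5.86 to 6.14 in pregnant liver, and 3 and 2 of the 9 markers lay below the median level.

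Slc7a9, the light chain that pairs with Slc3a1 to take up cystine and cationic amino acids, read 3.11, 3.11 and 3.39 in virgin and 3.90, 4.69 and 4.82 in pregnant liver. The change was 1.27 ± 0.18 (adjusted p = 0.000336), with both group means under the median level. Slc7a12, an orphan relative of the light chains, changed by 0.43 at still lower levels (2.49, 2.55 and 2.57 to 2.67, 3.17 and 3.05, adjusted p = 0.0249). It failed without any one of the virgin pools and without pregnant pool 2 or 3 (highest adjusted p = 0.102, without pregnant pool 2). Signal above background is thus shown for neither group in these genes.

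Slc3a2 read 9.23, 9.25 and 9.36 in virgin and 8.99, 9.04 and 9.05 in pregnant liver, which differ by -0.25 ± 0.08 without passing (adjusted p = 0.0583) although the pools did not overlap. Slc3a1 changed by 0.11 and did not pass. Of the light chains that did not pass in liver, Slc7a8 changed by 0.23, Slc7a11, the cystine and glutamate exchanger, by 0.10, and Slc7a5, the chief leucine light chain, by -0.07. Slc7a10, Slc7a6, Slc7a13 and Slc7a15 changed by -0.07, -0.17, -0.17 and 0.21. The cationic carriers Slc7a1 and Slc7a3 changed by 0.06 and 0.21 and did not pass.

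Slc7a2, the cationic amino acid carrier known for its high expression in liver, fell. It read 10.37, 10.43 and 10.47 in virgin and 10.02, 9.62 and 9.45 in pregnant liver, with all pregnant pools below the virgin ones. The change was -0.72 ± 0.12 (adjusted p = 0.00101), with -0.58 within pools 1 and 2 and -1.01 within pool 3. Of its 3 further probe sets 2 fell as well, by 0.67 and 0.58, and the dimmest changed by 0.17 without passing.

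The steepest fall was that of Slc38a4. It read 11.60, 11.50 and 11.61 in virgin and 9.90, 10.04 and 10.32 in pregnant liver. The groups were far apart, and the change was -1.48 ± 0.17 (adjusted p = 5.32e-05). A further probe set fell by 1.67. In lung the change was -0.06 and did not pass, and the difference between the tissues was 1.42 (lung minus liver, adjusted p = 0.00282).

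Other carriers of glutamine and alanine did not follow Slc38a4. Slc38a3 had a change of -0.01 and Slc38a2, which cells raise when amino acids run short, one of 0.23, and neither passed. The other SLC38 genes that did not pass lay between -0.18 and -0.08. Slc38a10 read 9.65, 9.58 and 9.55 in virgin and 10.04, 10.01 and 9.82 in pregnant liver, a change of 0.36 ± 0.09 (adjusted p = 0.0182). Slc38a10 rose less within pool 3, whose liver arrays lacked spike-in signal, than within pools 1 and 2. It failed the test without virgin pool 2 or 3 and without pregnant pool 1 or 2 (highest adjusted p = 0.0667), and none of its 6 further probe sets passed. With the liver arrays fitted alone Slc38a10, Slc7a12 and Slc43a2 did not pass.

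Slc36a1, a proton-coupled carrier of small neutral amino acids found on lysosomes, read 6.89, 6.72 and 6.92 in virgin and 7.66, 7.72 and 8.14 in pregnant liver. The pools did not overlap and the change was 1.00 ± 0.13 (adjusted p = 0.000155). Slc36a1os, its opposite-strand neighbour, did not pass in either tissue. Slc1a2 read 7.41, 7.70 and 7.29 in virgin and 8.17, 8.23 and 8.28 in pregnant liver, again without overlap. Its change was 0.76 ± 0.14 (adjusted p = 0.00173), with 0.64 within pools 1 and 2 and 1.00 within pool 3. Of its 4 further probe sets 2 rose, by 1.05 and 0.52, and the others, at low levels, did not pass.

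Slc1a2 belongs to the hepatocytes around the central vein, so zonation markers were read beside it. Of 11 perivenous genes 0 rose and Cyp27a1, Lect2 and Nkd1 fell by 0.89, 0.82 and 0.55 (27.3% passed, against 13.6% of all genes). The list's median change was -0.34, against -0.01 over all genes. Pools did not overlap for 9 of the 11 (81.8%, against 28% of all genes), with 1 higher and 8 lower. Glul, glutamine synthetase of the same cells, changed by -0.23 and did not pass. Of 7 periportal genes Cyp2f2 fell by 0.71 and 6 did not pass (14.3% passed), with a median change of -0.21.

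**Figure D2:**
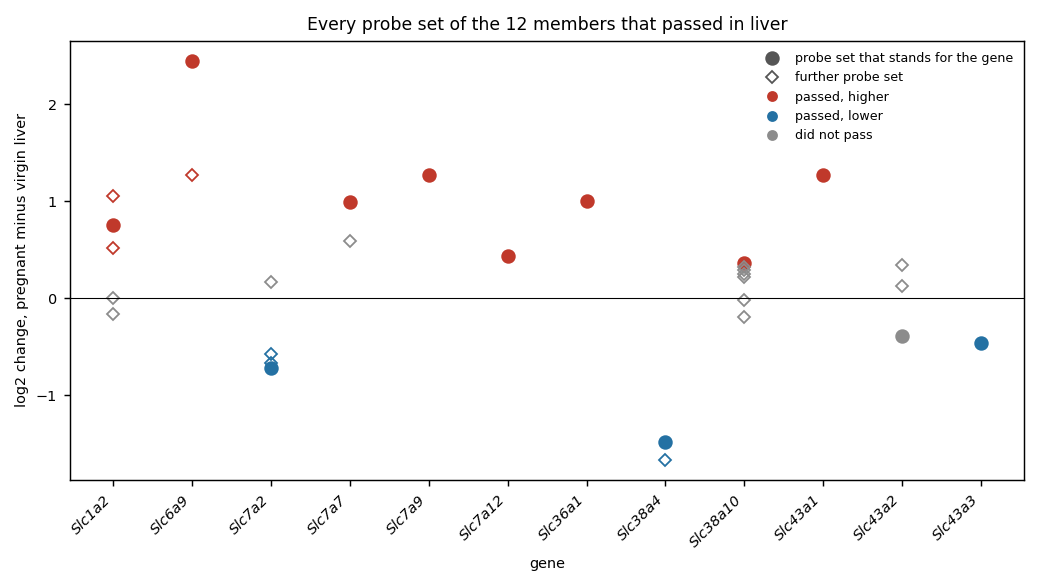
Log2 change, pregnant minus virgin liver, of every probe set of the 12 members that passed in liver; filled circles stand for the gene, open diamonds are further probe sets, and colour shows the test adjusted over all probe sets. Among 18 further probe sets 11 changed in the same direction and 6 in the opposite one, 6 passed in the same direction and 0 in the opposite one, and Slc43a2 is grey because adjustment over all probe sets gave 0.0634.

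Slc1a1, a glutamate and cysteine carrier, had the widest spread of the members. It read 6.40, 4.72 and 5.84 in virgin liver and 7.99, 4.08 and 7.44 in pregnant liver. Pool 2 was the lowest in both groups, and the SD in pregnant liver was 2.11 where the median member had 0.161. Its other probe sets were also lowest for pool 2, with 6.09, 3.13 and 5.52 in pregnant liver on one and 5.48, 4.39 and 5.30 on the other. Its change of 0.84 did not pass (adjusted p = 0.505). The other SLC1 genes that did not pass in liver changed by 0.06 to 0.27.

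Further cells could be part of the liver samples, and their markers moved with pregnancy as well. Of 14 pancreas acinar markers 4 rose (Pnliprp1, Cela3b, Clps and Cpa1, by 3.42, 2.73, 0.70 and 0.39) and 2 fell (Cela1 and Cela2a, by 1.35 and 0.87). Their mean level per pool was 4.93 to 5.10 in virgin and 5.24 to 5.47 in pregnant liver. Of the 14, 7 and 4 lay below the median level, among them Ptf1a, Cpb1 and Cel. Cpa1 was below it in virgin liver, with a group mean of 4.31. Of the acinar list 42.9% passed, against 13.6% of all genes. Of 5 cycling cell markers 2 rose (Birc5 and Mki67, by 1.41 and 0.95), or 40%, with means of 4.65 to 5.94 and 5.81 to 6.60. The part of these cells in the changes of the carriers was not tested.

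**Figure D3:**
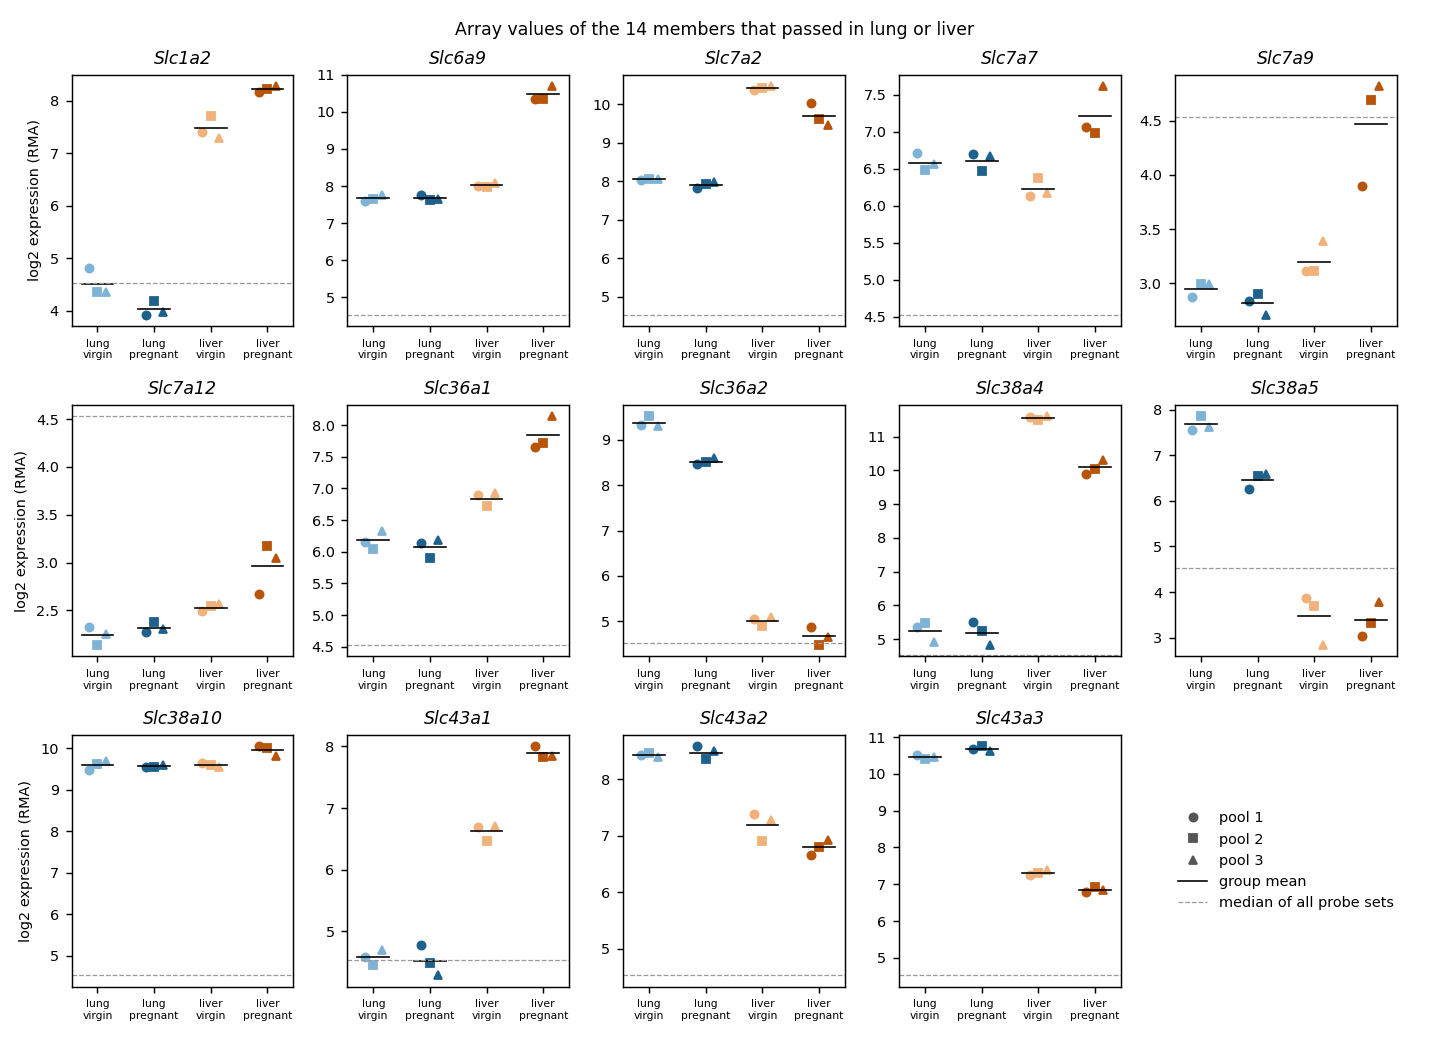
Log2 level on each array for the 14 members that passed in liver or lung; circles, squares and triangles are pools 1, 2 and 3, black bars are group means, and the dashed line is the median of all probe sets, 4.53. Slc6a9, Slc43a1, Slc36a1 and Slc38a4 separate in liver and not in lung, Slc38a5 separates in lung, and Slc36a2 in both tissues, of which its lung change passed. In lung Slc43a1 lay near the dashed line.

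In pregnant lung few carriers changed. Of the 63 members 0 rose, 2 fell and 61 did not pass, or 3.17% against 0.594% of all genes. The median change was -0.01, the same as over all genes. The pools did not overlap for 12 members, or 19%, against 18.4% of all genes.

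Slc36a2 read 9.33, 9.52 and 9.30 in virgin and 8.46, 8.50 and 8.60 in pregnant lung. The pools were well apart, and the change was -0.86 ± 0.11, or 1.82-fold lower (limma adjusted p = 0.00403). It passed whichever lung array was left out. Slc38a5 read 7.56, 7.86 and 7.63 in virgin and 6.26, 6.55 and 6.58 in pregnant lung. The pools did not overlap either, and the change was -1.23 ± 0.24, or 2.34-fold lower (adjusted p = 0.0349). Slc38a5 failed the test without any one of the 6 lung arrays (highest adjusted p = 0.153, without virgin pool 2), which left 1 member passing each time.

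In liver Slc36a2 changed by -0.34 (adjusted p = 0.0562), from 5.04, 4.89 and 5.10 to 4.87, 4.48 and 4.66, with all pregnant pools below the virgin ones as in lung. Slc38a5 changed by -0.09 between group means of 3.47 and 3.38, both under the median level, and neither gene passed. Signal above background is not shown for Slc38a5 in liver, so a lack of change there is not shown either. The difference between the tissues did not pass for these genes, so their falls are not shown to be particular to lung.

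Adipocytes express Slc36a2, and a list of their markers was added after the lung result was seen. Of 13 measured, Lipe rose by 0.86, 0 fell and 12 did not pass (7.69% passed, against 0.594% of all genes). Their mean level per pool was 5.39 to 5.63 in virgin and 5.44 to 5.89 in pregnant lung, and 5 of the 13 lay below the median level in each group. Slc38a5 is known from red cell precursors and dividing cells. Of 8 erythroid markers Trim10 fell by 0.60 and 7 did not pass (12.5% passed). Their mean level per pool was 5.12 to 5.30 in virgin and 4.92 to 5.11 in pregnant lung, ranges that did not overlap. Of 5 cycling cell markers 0 passed, but all 5 had changes from -0.94 to -0.53. The pools did not overlap for any of the 5 (100%, against 18.4% of all genes). The mean levels were 5.75 to 6.35 in virgin and 5.07 to 5.42 in pregnant lung. The part of these cells in the fall of Slc38a5 was not tested.

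Several carriers had lung pools that did not overlap but did not pass. Slc7a10 read 6.92, 6.95 and 6.81 in virgin and 6.35, 6.19 and 6.52 in pregnant lung (-0.54 ± 0.17, adjusted p = 0.211). Slc1a2 changed by -0.49 (adjusted p = 0.162), Slc6a12 by -0.33 (0.326), Slc3a2 by 0.24 (0.254) and Slc43a3 by 0.22 (0.34). Slc1a5, Slc7a5, Slc6a19os, Slc43a1 and Slc3a1 changed by -0.28, 0.17, -0.23, -0.06 and 0.01 and did not pass. The remaining light chains Slc7a6, Slc7a7, Slc7a8, Slc7a9, Slc7a11, Slc7a12, Slc7a13 and Slc7a15 lay between -0.14 and 0.19, and the cationic carriers Slc7a1, Slc7a2 and Slc7a3 between -0.14 and 0.07. The 95% interval of a member's change reached 0.26 to either side in lung and 0.27 in liver, as medians over the members, before any adjustment.

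**Figure D4:**
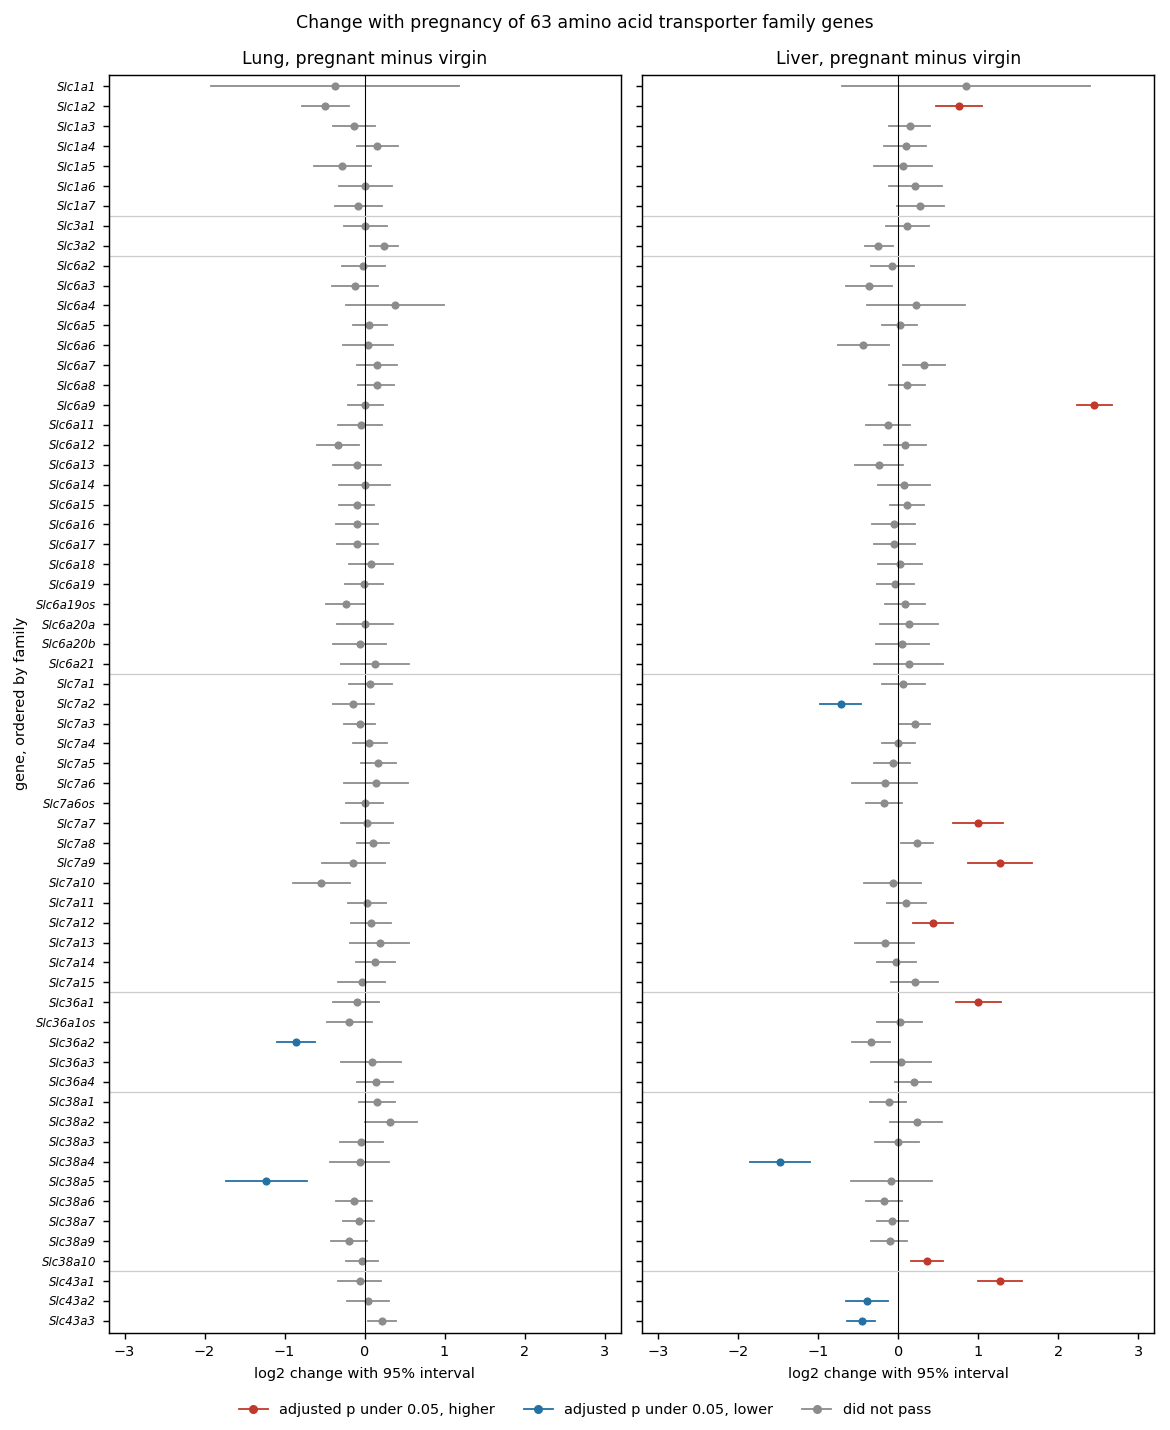
Log2 change with pregnancy of the 63 members in lung and in liver, ordered by family; points are fitted changes, lines their 95% intervals, and red and blue points passed upwards and downwards. In lung 2 points are coloured, Slc36a2 and Slc38a5, and in liver 12, from Slc38a4 at -1.48 to Slc6a9 at 2.45.

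The change with pregnancy differed between the tissues for 9 members, 14.3% against 6.71% of all genes, by a test of the difference itself (change in lung minus change in liver). Of the 8 carriers that rose in liver 6 passed this test: Slc6a9, Slc7a9, Slc43a1, Slc1a2, Slc36a1 and Slc7a7. Of the 4 that fell 2 did, Slc38a4 and Slc43a3. The liver change is itself part of this difference, and the share passing among all genes that rose or fell in liver was not computed. The differences of Slc43a1, Slc36a1 and Slc7a7 were -1.33, -1.10 and -0.96 (adjusted p = 0.000425, 0.00245 and 0.0124). In lung the group means of Slc43a1 were 4.58 and 4.52, next to the median level, so a lack of change there is not shown. The difference of Slc7a7 did not pass with the mean of its probe sets, and its further probe set gave -0.54 without passing. For Slc7a9, which lay under the median level in all groups, the difference was -1.41 (adjusted p = 0.00478).

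Of these 9 members, Slc1a2, Slc43a3 and Slc3a2 had the largest lung changes of a sign opposite to that in liver. Those of Slc7a9, Slc43a1 and Slc36a1 were also opposite in sign, at -0.14, -0.06 and -0.1 in lung. Slc1a2 changed by -0.49 in lung, where its group means were under the median level, and by 0.76 in liver, a difference of -1.25 (adjusted p = 0.00127). Slc43a3 changed by 0.22 and -0.46, a difference of 0.68 (adjusted p = 0.00268). The heavy chain Slc3a2 changed by 0.24 and -0.25 (difference 0.49, adjusted p = 0.0189), and this failed without lung virgin pool 2 (adjusted p = 0.0568), without lung pregnant pool 1 (0.0538) and with quantile normalization (0.0596). In lung none of these genes passed alone, and in liver Slc3a2 did not, so changes in opposite directions are not shown.

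Among the 8 carriers that rose in liver, 5 were lower in virgin lung than in virgin liver, 2 did not pass that comparison, and 1, Slc7a7, was higher with the unstable call given above. Of the 4 that fell, 2 were lower in lung and 2 higher. Slc7a12, among the 5, lay under the median level in all groups, and its tissue call passed in 1 of the 6 fits without 1 array. Over all genes 34.4% were lower in virgin lung and 34.3% higher. The shares among all genes that rose or fell in liver were not computed. The liver change and the tissue difference both use the virgin liver arrays.

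Other genes of amino acid handling were read from lists. Of 21 carriers outside these families, 2 rose in pregnant liver, the lysosomal cationic amino acid exporter Slc66a1 by 0.54 and the mitochondrial carrier Slc25a29 by 0.49. The aromatic amino acid carrier Slc16a10, the mitochondrial aspartate and glutamate carrier Slc25a12 and Slc22a4 fell by 0.40, 0.39 and 0.38, and the list's median was -0.02. Slc22a4 had liver group means of 3.40 and 3.02, both under the median level. Of this list 23.8% passed, against 13.6% of all genes. Of 7 partner genes, Bsg, a chaperone of surface carriers, rose by 0.66 and the lysosomal cysteine transporter gene Mfsd12 fell by 0.42 (28.6% passed).

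Of 30 genes of ATF4 and the amino acid response, 10 rose in pregnant liver, 1 fell and 19 did not pass (36.7%, against 13.6% of all genes), with a median change of 0.13 against -0.01 over all genes. Fgf21, a liver hormone of nutrient stress, rose by 1.59 ± 0.37, the stress gene Nupr1 by 0.98 ± 0.17, and Mthfd2, an enzyme of mitochondrial folate metabolism, by 0.83 ± 0.13 (SE, adjusted p = 0.01, 0.00154 and 0.000723). Ddit4, an inhibitor of the growth kinase complex mTORC1, rose by 0.77, and the alanine aminotransferase gene Gpt2 fell by 0.60. Atf4 itself changed by 0.14 and Trib3, one of its targets, by -0.24, and neither passed. Of 28 genes of mTORC1 and lysosomal sensing, the kinase gene Mtor rose by 0.47 and Fnip2, Lamtor2, Depdc5 and Sesn1 fell by 0.51, 0.44, 0.34 and 0.33. The other 23 did not pass, so that 17.9% passed, near the share of all genes.

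In lung 1 of the 30 ATF4 genes rose, Atf5 by 0.64, and 1 fell, Psat1 of serine synthesis by 0.78. This was 6.67% of the list, against 0.594% of all genes. Psat1 rose in liver by 0.46, from a virgin group mean of 4.23, under the median level, to 4.68. None of the other carriers, the partners, the mTORC1 genes or the zonation genes passed in lung.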

How the data were processed

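Total RNA of lung and liver was hybridised to 12 one-colour Affymetrix arrays, 3 pools for each of 4 groups. The authors deposited log2 values made with RMA in the affy package, per the submitters' processing notes. Versions were not given, and which arrays were normalized as one set is not given in the sources used here. Of 45037 probe sets other than controls, 34945 carried a single gene symbol, and the probe set with the highest mean stood for each of 18193 genes. All of them were fitted with 4 group means in limma 3.58.1 (R 4.3.3; 8 residual and 5.6 prior degrees of freedom), with Benjamini-Hochberg adjustment over all genes and a threshold of 0.05. No dim genes were left out. The fit was tested on simulated data with known changes.

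The members, the gene lists and the tests were chosen with earlier results of these data known. Named were all members that passed in a pregnancy comparison. Up to 4 per family and direction were named between virgin tissues, and up to 2 per family where none passed. The heavy and light chains were named too, with up to 4 genes of each further list in each pregnancy comparison. In liver Slc22a4, Sesn1, Gpt2 and Psat1 were named beyond that number. The limit was not applied to cell type markers. Slc6a6, Slc1a1, Slc38a1, Slc38a2, Slc38a3, Slc38a9, Slc6a2, Glul, Atf4 and Trib3 were named after their values were seen. The labels do not say that pool numbers pair the groups. Deviations of same-numbered virgin and pregnant pools correlated by -0.00631, 0.0155 and 0.096 in lung and 0.108, -0.11 and 0.0918 in liver. Between lung and liver they correlated by -0.0369, 0.0592 and 0.106 in virgin and 0.0194, -0.0208 and 0.0176 in pregnant mice. No pairing was used. The pool-number block among the alternatives was set within each tissue, so it does not pair lung with liver. Alternatives covered the arrays fitted, dim probe sets, the probe sets per gene, scaling, variance moderation, array weights, blocks, the threshold and leaving out each array.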

Additional observations from a re-analysis of the deposited data

Results flagged for a closer look

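For 9 members the change with pregnancy differed between lung and liver by a test of the difference itself (limma, change in lung minus change in liver, log2, 3 pools per group). The difference was -2.44 for Slc6a9, -1.41 for Slc7a9, -1.33 for Slc43a1, -1.25 for Slc1a2, -1.10 for Slc36a1 and -0.96 for Slc7a7, all of which rose in pregnant liver. It was 1.42 for Slc38a4 and 0.68 for Slc43a3, which fell in pregnant liver, and 0.49 for the heavy chain Slc3a2, which passed in neither tissue alone.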

How the results depend on the processing

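In lung the count of members passing went from 2 to 1 with the pool number as a replicate block, 1 at a threshold of 0.01, and 1 to 1 when each array was left out; Slc36a2 passed under each setting and Slc38a5 is the one lost. With the mean of all probe sets, Slc43a2 in liver changed to 0.03, and the tissue differences of Slc38a1, Slc38a9 and Slc6a2 to 0.80, 0.23 and 0.32. The liver count of 12 ran from 10 to 12 when each array was left out and from 9 to 15 under the other settings. It was 12 with the replicate block, 11 of them the same genes with Slc43a2 lost, and 15 with the arrays lacking spike-in signal as a block, which held all 12. The difference of Slc3a2 between the tissues also failed with the replicate block (adjusted p = 0.0595). The count for the difference between tissues, 9, ran from 7 to 12, and the tissue count, 46, from 37 to 49. Passing under every setting run were 1 of 2 members in lung, 9 of 12 in liver, 7 of 9 in the difference and 35 of 46 between tissues. The number of arrays, 3 per group, and levels near background limit what could be resolved.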

Other observations

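Slc6a6, the taurine carrier, read 8.82, 8.93 and 8.66 in virgin and 8.53, 8.62 and 7.94 in pregnant liver, a change of -0.44 that did not pass (limma adjusted p = 0.0671), with -0.30 within pools 1 and 2 and -0.71 within pool 3. A further, also bright probe set of Slc6a6 changed by -0.75 and passed when all probe sets were tested (adjusted p = 0.00483), and 2 much dimmer ones changed by 0.01 and 0.03. Slc6a2, the noradrenaline carrier, had 3 probe sets lower in virgin lung than in virgin liver, by -0.45, -0.45 and -0.44, and one that was higher by 2.63. These genes were singled out after their values were seen.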
